A study of Homo sapiens with 6 samples.

Results

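The drug-metabolising cytochrome P450 genes CYP1A1, CYP1B1, CYP2B6, CYP2C8, CYP2E1, CYP2J2 and CYP3A5 were examined together with POR and AHR, the genes of their electron donor and of a receptor that controls the CYP1 enzymes. These 9 genes were taken by name, and each matched 1 of the 25202 rows of the count table. All RNA was taken from cultured Huh7, an established line of human liver cancer cells. The knockout group (3 libraries, labelled KO) carried the guide sghnRNPA2B1 against HNRNPA2B1, an RNA-binding protein with roles in splicing. The control group (3 libraries, labelled WT) carried the guide sgNC. The labels do not say whether the knockout cells were 1 clone or a pool, or whether each library had a culture of its own. The p-values therefore reflect how far libraries of a group lay apart, which may be technical. The position of the guide within HNRNPA2B1 was not stated by the labels.

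Cytochrome P450 enzymes are haem proteins of the endoplasmic reticulum that oxidise drugs, pollutants, steroids and fatty acids with electrons passed on by the reductase POR. AHR is a cytosolic receptor that binds planar aromatic compounds, enters the nucleus with ARNT and induces CYP1A1 and CYP1B1 through DNA elements with the core letters GCGTG. CYP2B6, CYP2C8 and CYP3A5 belong to the families that the receptors CAR (NR1I3) and PXR (NR1I2) induce in liver, and hepatoma lines are known for low levels of many liver P450 enzymes.

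Promoter windows are shown for CYP1A1, the P450 gene with the highest level here, for CYP2B6, the rising gene of the CYP2 family, and for CYP2C8, a low gene of that family. Each window runs from 250 bases before to 50 bases after the gene's start in RefSeq (build GRCh38.p14) and reads 5′ to 3′ along the gene. Capitals mark matches on either strand to GCGTG (the core of an AHR element), the TATA box TATAAA or CAAAGTCCA (a form of the element bound by HNF4A).
CYP1A1 (chr15:74725479-74725778, minus strand): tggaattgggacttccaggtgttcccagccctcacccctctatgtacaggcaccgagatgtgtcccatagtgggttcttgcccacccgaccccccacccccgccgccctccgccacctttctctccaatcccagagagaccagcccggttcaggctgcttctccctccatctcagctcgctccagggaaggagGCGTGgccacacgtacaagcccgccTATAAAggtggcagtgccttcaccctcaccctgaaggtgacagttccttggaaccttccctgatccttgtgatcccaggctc
CYP2B6 (chr19:40991032-40991331, plus strand): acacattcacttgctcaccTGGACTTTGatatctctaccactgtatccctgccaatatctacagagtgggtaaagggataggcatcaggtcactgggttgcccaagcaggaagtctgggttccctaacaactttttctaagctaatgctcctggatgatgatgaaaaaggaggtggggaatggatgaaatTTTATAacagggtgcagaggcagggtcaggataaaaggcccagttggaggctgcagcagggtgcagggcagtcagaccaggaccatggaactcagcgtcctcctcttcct
CYP2C8 (chr10:95069448-95069747, minus strand): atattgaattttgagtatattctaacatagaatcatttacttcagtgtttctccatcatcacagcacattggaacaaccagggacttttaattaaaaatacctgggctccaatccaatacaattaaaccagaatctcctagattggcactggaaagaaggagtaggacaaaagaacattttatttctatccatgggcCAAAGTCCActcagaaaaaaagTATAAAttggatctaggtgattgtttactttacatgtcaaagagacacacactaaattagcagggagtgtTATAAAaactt

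Of the 9 genes, 7 had a promoter window in RefSeq's table, and CYP1B1 and POR did not. GCGTG was found in 3 windows, those of CYP1A1, CYP2J2 and AHR, and in 36.5% of the 35116 windows of all genes. In CYP1A1 the match lay at −57 to −53 from the start, ahead of a TATA box at −32 to −27. TATAAA was found on either strand in 4 of the 7 windows, those of CYP1A1, CYP2B6, CYP2C8 and CYP2E1, against 11.5% of all windows. The CYP2B6 match lay on the opposite strand at −60 to −55, and 1 of the 2 CYP2C8 matches lay after the start, at 40 to 45. CAAAGTCCA was found in 2, those of CYP2B6 and CYP2C8, against 0.38% of all windows. In CYP2C8 it lay at −53 to −45, close to the start, and in CYP2B6 at −231 to −223 on the opposite strand. The windows of CYP2A6, CYP2A7 and CYP2S1, which are not among the 9 genes, were also scanned. CAAAGTCCA lay at −56 to −48 in those of CYP2A6 and CYP2A7 and was not found in that of CYP2S1. A match of letters is a description of these windows and does not show binding.

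Library totals ran from 32702480 to 36809274 counts in the knockout group and from 32517757 to 38870244 in the control group. HNRNPA2B1 itself averaged 229 ± 8.30 CPM (read counts scaled to library size with TMM factors) in the knockout libraries and 1214 ± 221 CPM in the control libraries (SD, n = 3 each). A count summed over the gene cannot separate edited from intact transcripts. The hepatocyte identity of the line was visible in both groups, with all 10 hepatocyte markers detected in every library. Their summed level was 10989 to 11955 CPM in the knockout libraries and 18203 to 21895 CPM in the controls. By edgeR's quasi-likelihood test 9 of the 10 fell, beside 19.0% of all tested genes. Of 17 markers of blood, endothelial, stromal and squamous cells, KRT14 was at 0 in every library. PTPRC, CD3E and DCN were at 0 in every control library. The summed level of these 17 genes was 44.9 to 60.6 CPM in the knockout libraries and 59.1 to 75.5 CPM in the controls. PECAM1 made up most of every sum, with 30.5, 34.2 and 34.9 CPM in the knockout libraries, against 54.3, 55.3 and 70.2 CPM in the controls. The rest of the sum was higher in every knockout library than in any control library. Of the 8 tested, 4 rose and 1 fell, beside 21.1% and 19.0% of all tested genes. The risers were LUM, PDGFRB, COL3A1 and CSF1R, and PECAM1 fell. Knockout replicate 2 held most of the COL3A1 counts, 262 against 30 and 14 in the other knockout libraries. The same library held most counts of the untested COL1A1 (165 against 23 and 4) and DCN (36 against 4 and 0). The part of these markers in the P450 results was not tested. In bulk RNA, fewer cells expressing a gene and less of it per cell cannot be told apart.

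The comparison asked how transcripts of P450 enzymes and their partners differ after loss of HNRNPA2B1. CYP1B1, CYP2B6 and CYP3A5 rose in the knockout cells, and CYP1A1, CYP2J2 and POR fell. CYP2C8, CYP2E1 and AHR did not pass the test. The test was edgeR's quasi-likelihood test over 16331 genes with Benjamini-Hochberg adjustment, and calls required an adjusted p under 0.05. All 9 genes passed the filter on low counts. Across all tested genes 40.1% were called, 21.1% as rises and 19.0% as falls, so 3 rises and 3 falls among 9 genes stand against a background of widespread change. Of the 9 genes, 8 had knockout libraries wholly outside the control range, as did 54.3% of all tested genes. The median log2 fold change over the 9 genes was 0.03, beside 0.05 over all tested genes. The 3 rises and the 3 falls were called under all 16 other settings of scaling, filter, test and left-out library.

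**Figure D1:**
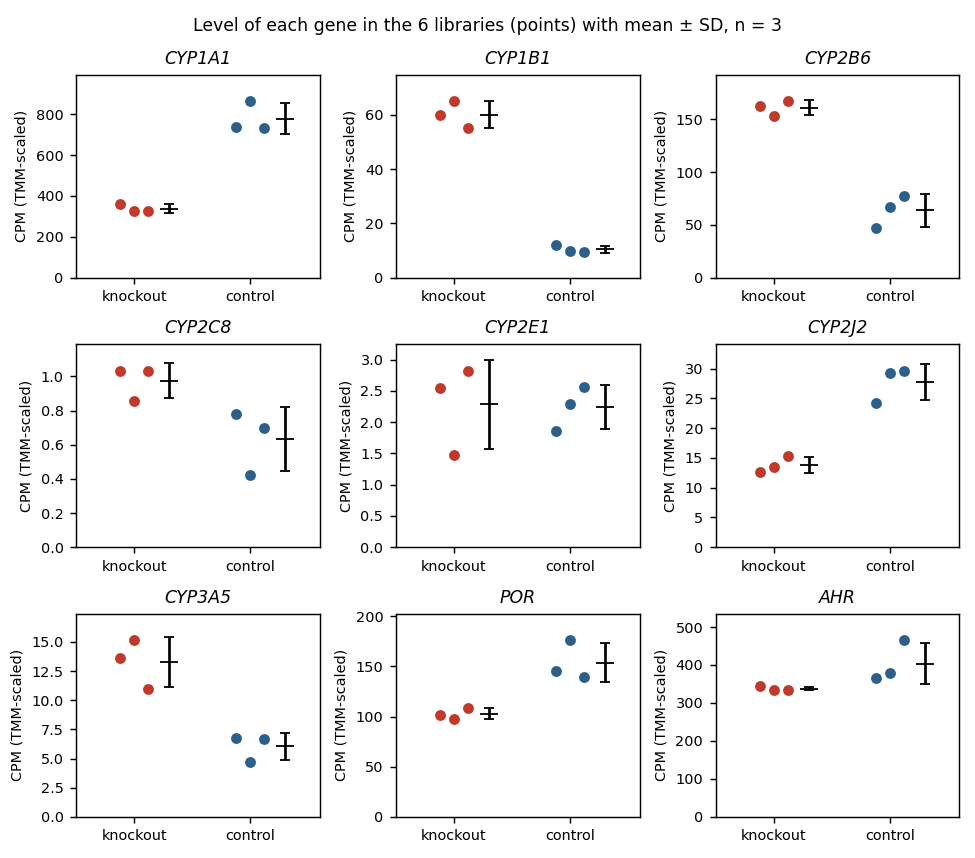
Level of each of the 9 genes in TMM-scaled CPM (y axis, from 0), with 3 knockout libraries on the left and 3 control libraries on the right of each panel, and the mean with its SD beside them. CYP1A1, CYP2J2 and POR are lower in every knockout library than in any control library, CYP1B1, CYP2B6 and CYP3A5 are higher, and the groups overlap for CYP2E1 alone.

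**Figure D2:**
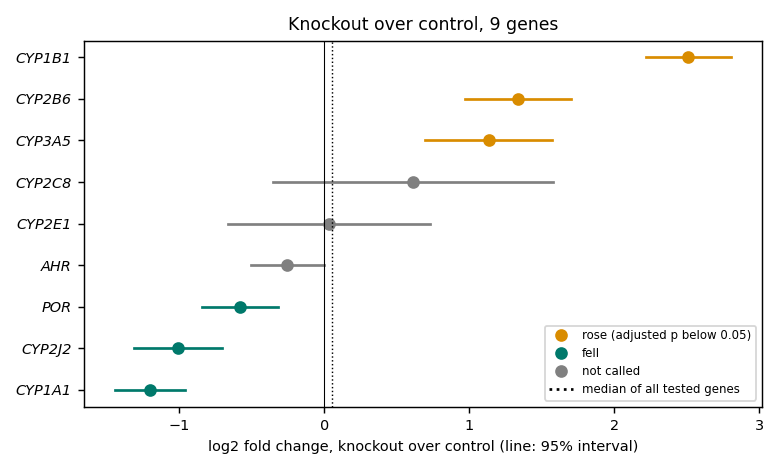
Log2 fold change of the 9 genes, knockout over control, with 95% intervals from edgeR's fit, ordered by value from CYP1B1 at the top to CYP1A1 at the bottom. The dotted line is the median of all tested genes at 0.05, and the intervals of CYP2C8, CYP2E1 and AHR end near or beyond 0.

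CYP1A1 and CYP1B1, the inducible CYP1 enzymes that oxidise polycyclic aromatic hydrocarbons and oestrogens, moved in opposite directions. CYP1A1 had 361, 327 and 325 CPM in the knockout libraries, against 737, 864 and 733 CPM in the control libraries. Every knockout library lay well below the lowest control library. CYP1A1 averaged 338 ± 20.4 CPM in the knockout and 778 ± 74.8 CPM in the controls (SD, n = 3 each). This was a log2 fold change of −1.20 ± 0.11 (SE), 2.30-fold lower, with an edgeR adjusted p of 3.13e-05. CYP1B1 had 59.8, 65.0 and 55.1 CPM in the knockout libraries, against 11.9, 9.98 and 9.61 CPM in the control libraries. The lowest knockout library was several times the highest control library. CYP1B1 averaged 59.98 ± 4.97 CPM in the knockout and 10.5 ± 1.25 CPM in the controls (SD, n = 3 each). Its log2 fold change of 2.51 ± 0.13 (SE), 5.70-fold higher, had an edgeR adjusted p of 1.62e-06. In size it exceeded 97.2% of all tested genes, and it was the largest change among the 9.

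The ratio of CYP1B1 to CYP1A1 counts does not depend on how libraries are scaled. On the log2 scale it was −2.60, −2.33 and −2.56 in the knockout libraries, against −5.95, −6.44 and −6.25 in the control libraries. The difference of the means was 3.72, with an exact permutation p of 0.1 (2-sided), which is the smallest that 3 against 3 libraries allow. Since CYP1B1 rose and CYP1A1 fell, each without overlap of the groups, the ratio had to separate them and this p adds no support. CYP1A1 shared no 50-base word of its longest GENCODE transcript with another gene, and neither did CYP1B1. An antisense gene, CYP1B1-AS1, is annotated across from CYP1B1, and no source used here says whether the counting used strand, so their reads cannot be told apart. CYP1A2, the third CYP1 enzyme and a major one in adult liver, had 10, 0 and 3 counts in the knockout libraries, against 4, 5 and 3 counts in the control libraries, too few to test.

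AHR itself was among the most abundant of the 9 genes. It had 344, 335 and 335 CPM in the knockout libraries, against 365, 380 and 466 CPM in the control libraries. The knockout libraries all lay below the controls, with control replicate 3 set apart from the other two. AHR had a log2 fold change of −0.26 ± 0.11 (SE, n = 3 each), with a 95% interval of −0.51 to −0.0031 and an edgeR adjusted p of 0.0982. It was called with DESeq2 (adjusted p = 0.0497) and without control replicate 1 (edgeR adjusted p = 0.0247), and it was 0.020 with cyclic loess, so its direction is not fixed. Of the 50-base words of the longest AHR transcript, 33.1% also occur in a transcript annotated as AC019117.2, so part of its reads can belong to either annotation. The log2 ratio of CYP1A1 to AHR counts was 0.073, −0.034 and −0.044 in the knockout libraries, against 1.014, 1.19 and 0.65 in the control libraries. The groups did not overlap in this ratio either (difference −0.95, exact permutation p = 0.1, 2-sided, the smallest possible here). The ranges of CYP1A1 and AHR in each group already fixed this separation, so this p adds no support.

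Other genes of the AHR pathway did not move one way. Of 15 partners, repressors and targets listed, 14 were tested, 3 rose and 2 fell, at a median log2 fold change of −0.09 beside 0.05 over all tested genes. The called share of 35.7% was near the 40.1% of all tested genes. NQO1, a quinone reductase induced through AHR and NRF2, fell with CYP1A1, to 341 ± 16.5 CPM in the knockout, against 612 ± 94.4 CPM in the controls (SD, n = 3 each; edgeR adjusted p = 0.000619). UGT1A6, a glucuronosyltransferase and another AHR target, rose 7.15-fold to 14.9 ± 3.88 CPM in the knockout, against 2.07 ± 0.87 CPM in the controls. Its last exons are shared with the other UGT1A genes, which leaves its count uncertain. TIPARP, a target that feeds back on AHR, had a log2 fold change of 0.40 ± 0.14 (SE) and an edgeR adjusted p of 0.048. That call ended without any of knockout replicates 1, 2 and 3 or control replicates 2 and 3, at adjusted p from 0.0642 to 0.175, and with DESeq2 size factors (0.0563) or a replicate block (0.0576). The amino acid transporter SLC7A5 rose 1.57-fold. The chaperone HSP90AB1, which holds unbound AHR in the cytosol, fell 1.46-fold (edgeR adjusted p = 0.000768), a call that ended with cyclic loess (adjusted p = 0.189). ARNT, the nuclear partner of AHR, had a log2 fold change of −0.12 ± 0.13 (SE) and the repressor AHRR one of 0.24 ± 0.25 (SE), neither of which passed.

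CYP2B6, which oxidises bupropion, efavirenz and cyclophosphamide, had the largest rise among the 9 genes after CYP1B1. It had 163, 153 and 167 CPM in the knockout libraries, against 47.2, 66.6 and 77.7 CPM in the control libraries. The knockout libraries were close to each other and the controls were spread, with control replicate 1 lowest. CYP2B6 averaged 161 ± 7.16 CPM in the knockout and 63.8 ± 15.4 CPM in the controls (SD, n = 3 each). CYP2B6 had a log2 fold change of 1.34 ± 0.17 (SE), 2.52-fold higher, with an edgeR adjusted p of 0.000212. Leaving out 1 library at a time gave values from 1.12 to 1.48. Of the 50-base words of its longest transcript, 9.9% also occur in the pseudogene CYP2B7P.

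CYP2B6 lies on chromosome 19 in a cluster of CYP2 genes, and its expressed neighbours did not all move alike. These neighbours were singled out after their values had been seen. CYP2A6, the nicotine C-oxidase, had 7.68, 8.15 and 7.995 CPM in the knockout libraries, against 3.45, 4.22 and 3.13 CPM in the control libraries, a rise of 1.14 ± 0.19 on the log2 scale (SE; edgeR adjusted p = 0.00123). CYP2A7, its close relative and neighbour, had 19.6, 18.3 and 22.8 CPM in the knockout libraries, against 4.72, 5.69 and 6.55 CPM in the control libraries, a rise of 1.84 ± 0.17 (SE; edgeR adjusted p = 3.82e-05). The pair share sequence, since 39.8% of the 50-base words of CYP2A6 occur in other genes, CYP2A7 foremost, and their counts are uncertain to that extent. At the far end of the cluster, CYP2S1, an extrahepatic enzyme of retinoid metabolism that AHR can induce, had 26.7, 26.4 and 30.3 CPM in the knockout libraries, against 40.1, 69.3 and 70.5 CPM in the control libraries. CYP2S1 fell by 1.11 ± 0.20 on the log2 scale (SE; edgeR adjusted p = 0.00164), and it shared no 50-base word with another gene. The log2 ratio of CYP2B6 to CYP2S1 counts averaged 2.54 ± 0.07 in the knockout and 0.11 ± 0.15 in the controls (SD, n = 3 each; exact permutation p = 0.1, 2-sided, the smallest possible here). Since CYP2B6 rose and CYP2S1 fell, each without overlap of the groups, this ratio had to separate them and its p adds no support. CYP2A13 and CYP2F1, between them, were too low to test.

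**Figure D3:**
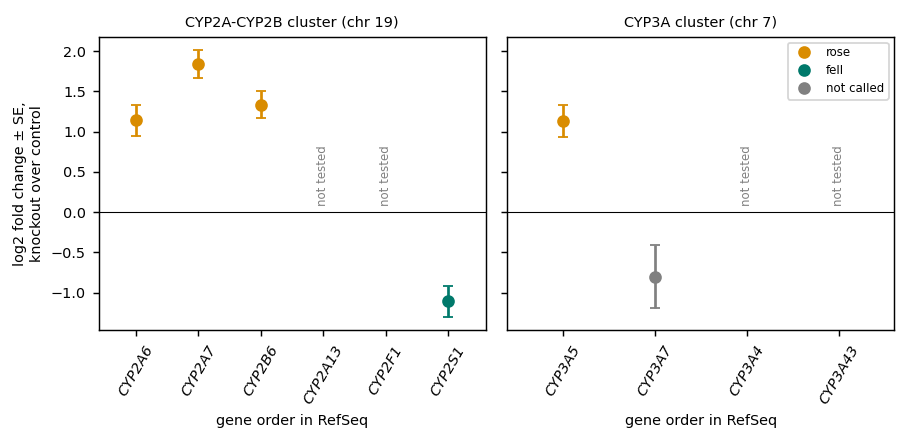
Log2 fold change with its SE, knockout over control, for the P450 genes of the CYP2A-CYP2B cluster (chromosome 19) and the CYP3A cluster (chromosome 7), in the order of the genes in RefSeq. CYP2A6, CYP2A7 and CYP2B6 rose and CYP2S1 fell, while in the CYP3A cluster CYP3A5 rose and CYP3A7 did not pass the test.

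CYP2C8, which oxidises paclitaxel and arachidonic acid, was near the limit of detection. It had 41, 30 and 37 counts in the knockout libraries, against 29, 13 and 21 counts in the control libraries. Scaled to depth, the knockout values of 0.855 to 1.03 CPM lay above the control values of 0.43 to 0.78 CPM. The log2 fold change of 0.61 ± 0.43 (SE, n = 3 each) had a 95% interval of −0.35 to 1.57 and an edgeR adjusted p of 0.288, and the interval includes both no change and a rise of over 2-fold. CYP2C19, in the same cluster on chromosome 10, had 0.73, 5.16 and 7.74 CPM in the knockout libraries, against 4.15, 3.99 and 5.65 CPM in the control libraries. Knockout replicate 1 was far below the other libraries there. Of the 50-base words of CYP2C19, 47.5% occur in other annotated genes.

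CYP2E1, the ethanol-inducible enzyme that activates paracetamol, showed no detectable difference. It had 2.54, 1.48 and 2.82 CPM in the knockout libraries, against 1.86, 2.29 and 2.56 CPM in the control libraries, and the groups overlapped. The log2 fold change was 0.03 ± 0.31 (SE, n = 3 each) with a 95% interval of −0.66 to 0.73, an edgeR adjusted p of 0.946 and no fixed sign over other settings.

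CYP2J2, which turns arachidonic acid into epoxides and is expressed beyond the liver, fell. It had 12.6, 13.5 and 15.3 CPM in the knockout libraries, against 24.2, 29.2 and 29.7 CPM in the control libraries. All knockout libraries lay below all controls. CYP2J2 averaged 13.8 ± 1.35 CPM in the knockout and 27.7 ± 3.03 CPM in the controls (SD, n = 3 each). Its log2 fold change was −1.007 ± 0.14 (SE), 2.01-fold lower, with an edgeR adjusted p of 0.000369.

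CYP3A5, an enzyme of the family that clears many medicines, rose. It had 13.7, 15.2 and 10.96 CPM in the knockout libraries, against 6.74, 4.71 and 6.65 CPM in the control libraries. The groups did not overlap, although the spread within each was wide. CYP3A5 averaged 13.3 ± 2.13 CPM in the knockout and 6.03 ± 1.14 CPM in the controls (SD, n = 3 each). The log2 fold change was 1.13 ± 0.20 (SE), 2.19-fold higher, with an edgeR adjusted p of 0.00152. CYP3A4, the main adult liver enzyme of the family, had 9, 4 and 6 counts in the knockout libraries and 0 in every control library. It was too low to test. With the control group set at a floor of 3 counts in all, CYP3A4 was 5.60-fold higher. That value leaves out the counting error of the 19 knockout counts. CYP3A7, the fetal liver form, had a log2 fold change of −0.80 ± 0.39 (SE; edgeR adjusted p = 0.127). Of the 50-base words of the longest CYP3A5 transcript, 2.4% occur in other genes.

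POR, the reductase on which all microsomal P450 enzymes depend, fell. It had 102, 98.04 and 108 CPM in the knockout libraries, against 146, 176 and 139 CPM in the control libraries. The knockout libraries were again all below the controls. POR averaged 103 ± 5.31 CPM in the knockout and 154 ± 19.7 CPM in the controls (SD, n = 3 each). The log2 fold change was −0.58 ± 0.12 (SE), with a 95% interval of −0.85 to −0.32 and an edgeR adjusted p of 0.00352.

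The other electron donors and the enzymes of haem synthesis and breakdown were listed as 20 genes, all of them tested, of which 5 rose and 5 fell, at a median log2 fold change of −0.09 beside 0.05 over all tested genes. The called share was 50%, beside 40.1% of all tested genes. CYB5R3, the reductase of cytochrome b5, fell 2.13-fold to 135 ± 6.64 CPM in the knockout, against 287 ± 71.2 CPM in the controls (SD, n = 3 each; edgeR adjusted p = 0.000756). Cytochrome b5 itself (CYB5A) and its outer mitochondrial form (CYB5B) had log2 fold changes of −0.39 ± 0.14 and −0.44 ± 0.10 (SE), and both fell. The call for CYB5B ended without knockout replicate 1 (edgeR adjusted p = 0.0565), with library size alone (edgeR adjusted p = 0.0633) and with cyclic loess (limma adjusted p = 0.0923). In haem synthesis, PPOX rose 2.29-fold, while ALAS1, the rate-limiting step, had a log2 fold change of −0.16 ± 0.12 (SE) that did not pass. The biliverdin reductases BLVRA and BLVRB, which act after haem breakdown, rose 2.65-fold and 1.97-fold. Without knockout replicate 2, and likewise without knockout replicate 3, 6 of these 20 genes were called in place of 10.

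Among the listed receptors and factors that control P450 genes, more fell than rose. Of 26 genes, 25 were tested, 12 fell, 3 rose and 10 did not pass, at a median log2 fold change of −0.30 beside 0.05 over all tested genes. The called share was 60%, beside 40.1% of all tested genes, of which 19.0% fell and 21.1% rose. HNF4A, a master regulator of hepatocyte genes, fell to 142 ± 4.27 CPM in the knockout, against 256 ± 20.6 CPM in the controls (SD, n = 3 each; edgeR adjusted p = 0.000192). NR2F1, an orphan receptor, fell 3.23-fold and SP1 fell 1.75-fold. NR3C1, the glucocorticoid receptor, rose 2.10-fold to 49.2 ± 3.10 CPM in the knockout, against 23.5 ± 3.39 CPM in the controls (SD, n = 3 each; edgeR adjusted p = 0.000213). The coactivator NCOA1 rose 1.40-fold, a call that ended without knockout replicate 1 (edgeR adjusted p = 0.0799). The repressor NR0B2 rose 1.91-fold from a low level (edgeR adjusted p = 0.0481), a call that ended when any 1 of the 6 libraries was left out, at edgeR adjusted p from 0.0575 to 0.129. It also ended with DESeq2 size factors, no filter, DESeq2, a replicate block and cyclic loess, where the log2 fold change was 0.36 (limma adjusted p = 0.378). Without knockout replicate 1 the list had 1 rise in place of 3. PXR (NR1I2) and CAR (NR1I3), the receptors that induce CYP2B6 and CYP3A genes, were low and did not pass, at 3.44 ± 0.11 CPM in the knockout and 2.83 ± 0.64 CPM in the controls for NR1I2, and 1.87 ± 0.17 CPM in the knockout and 1.87 ± 0.39 CPM in the controls for NR1I3 (SD, n = 3 each).

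Levels of different genes were compared as CPM per kilobase of annotated exon. In the knockout the order was CYP1A1 (98.4 ± 5.93), CYP2B6 (42.8 ± 1.90), AHR (41.8 ± 0.61), POR (16.8 ± 0.87), CYP1B1 (9.97 ± 0.83), CYP2J2 (4.61 ± 0.45), CYP3A5 (1.96 ± 0.32), CYP2C8 (0.379 ± 0.040) and CYP2E1 (0.237 ± 0.074), as CPM per kilobase (SD, n = 3). CYP2B6 and AHR were not separated there, since their libraries overlapped. In the controls it was CYP1A1 (227 ± 21.8), AHR (49.9 ± 6.73), POR (25.2 ± 3.23), CYP2B6 (17.0 ± 4.10), CYP2J2 (9.27 ± 1.013), CYP1B1 (1.75 ± 0.21), CYP3A5 (0.893 ± 0.169), CYP2C8 (0.247 ± 0.072) and CYP2E1 (0.233 ± 0.037), as CPM per kilobase (SD, n = 3). CYP2C8 and CYP2E1 overlapped in the controls. CYP2B6 thus stood at place 2 in the knockout and place 4 in the controls, and CYP1B1 and CYP2J2 changed places. With the longest transcript in place of all exons, POR came ahead of AHR in the controls, at 60.8 against 58.0 CPM per kilobase.

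CYP1A1 made up 62.1 ± 1.44% of the summed level per kilobase of the 7 P450 genes in the knockout and 88.5 ± 1.89% in the controls (SD, n = 3 each). The share of CYP2B6 was 27.0 ± 1.30% in the knockout and 6.63 ± 1.58% in the controls, and that of CYP1B1 was 6.31 ± 0.62% in the knockout and 0.689 ± 0.127% in the controls. The sum itself was 154 to 165 CPM per kilobase in the knockout libraries and 239 to 282 in the control libraries. Leaving CYP1A1 out turned that order round, with 58.7 to 61.0 CPM per kilobase in the knockout libraries and 24.1 to 33.7 in the control libraries. Most of that remainder was CYP2B6, at a mean of 42.8 in the knockout and 17.0 in the controls. CYP1B1 was at 9.97 in the knockout and 1.75 in the controls, while CYP2J2 went the other way, at 4.61 and 9.27.

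**Figure D4:**
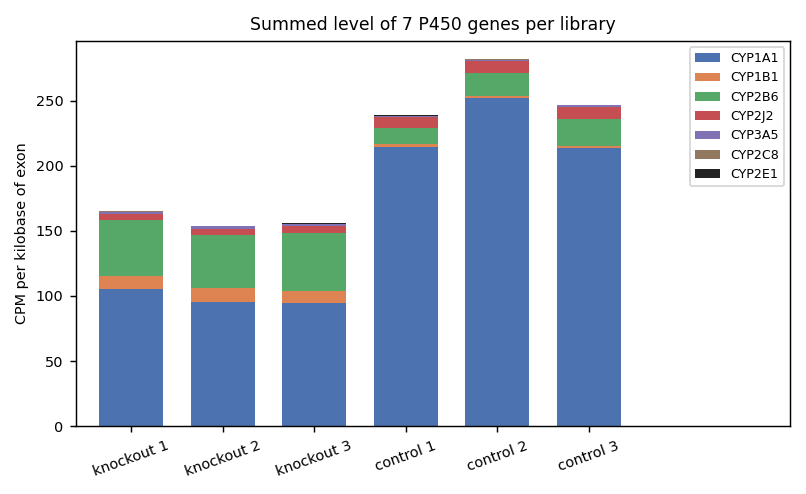
Summed level of the 7 P450 genes in each library, in CPM per kilobase of exon (y axis, from 0), with the 3 knockout libraries left of the 3 control libraries and 1 colour per gene. The knockout bars reach 154 to 165 and the control bars 239 to 282, and the CYP1A1 part is the largest in every bar.

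Among the other listed CYP1 to CYP3 genes, 17 were in the table and 11 had enough counts to test. Of these, 4 rose, 1 fell and 6 did not pass, a called share of 45.5% near the 40.1% of all tested genes, at a median log2 fold change of 0.76 beside 0.05 over all tested genes. The 6 untested genes were all very low. The risers included CYP2A6, CYP2A7 and CYP2R1, the vitamin D 25-hydroxylase, which rose 1.78-fold to 38.3 ± 1.11 CPM in the knockout, against 21.5 ± 0.81 CPM in the controls (SD, n = 3 each; edgeR adjusted p = 0.000278). CYP2S1 was the gene that fell.

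P450 genes of sterol, fatty acid, vitamin and steroid metabolism went both ways. Of 33 in the table, 11 were at 0 in every library, among them the bile acid enzymes CYP7A1 and CYP7B1, and 15 were tested, of which 3 rose and 4 fell. Their median log2 fold change was 0.18, beside 0.05 over all tested genes, and their called share of 46.7% was near the 40.1% of all tested genes. CYP26A1, which degrades retinoic acid, rose 6.53-fold to 6.79 ± 0.35 CPM in the knockout, against 1.03 ± 0.39 CPM in the controls (SD, n = 3 each; edgeR adjusted p = 0.000101). CYP20A1, an orphan enzyme, rose 1.70-fold, and the steroid enzyme CYP17A1 rose 2.48-fold from a low level. Both calls ended without knockout replicate 1, at edgeR adjusted p of 0.0823 for CYP20A1 and 0.054 for CYP17A1. CYP17A1 also lost its call without knockout replicates 2 or 3 or control replicates 1 or 3, where its adjusted p reached 0.155, and with a replicate block (edgeR adjusted p = 0.0503). Cyclic loess ended both calls, at a log2 fold change of 0.66 for CYP17A1 (limma adjusted p = 0.207) and 0.50 for CYP20A1 (limma adjusted p = 0.0805). CYP51A1, the demethylase of cholesterol synthesis, fell 1.82-fold, and CYP4F12 and CYP4F3, which hydroxylate fatty acids, fell 2.49-fold and 1.44-fold.

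Of 24 other oxidising and hydrolysing enzymes of drug metabolism, 20 were tested, 6 fell and none rose, at a median log2 fold change of −0.23 beside 0.05 over all tested genes. The called share was 30%, beside 40.1% of all tested genes, of which 19.0% fell. PON1, paraoxonase, fell 3.85-fold to 3.84 ± 0.84 CPM in the knockout, against 14.8 ± 1.87 CPM in the controls (SD, n = 3 each; edgeR adjusted p = 7.33e-05). The alcohol dehydrogenase ADH6 fell 3.59-fold, and DPYD, which breaks down fluorouracil, fell 2.37-fold. A rise was called for 1 of these genes with upper-quartile scaling, with library size alone, with cyclic loess and without control replicate 2.

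**Figure D5:**
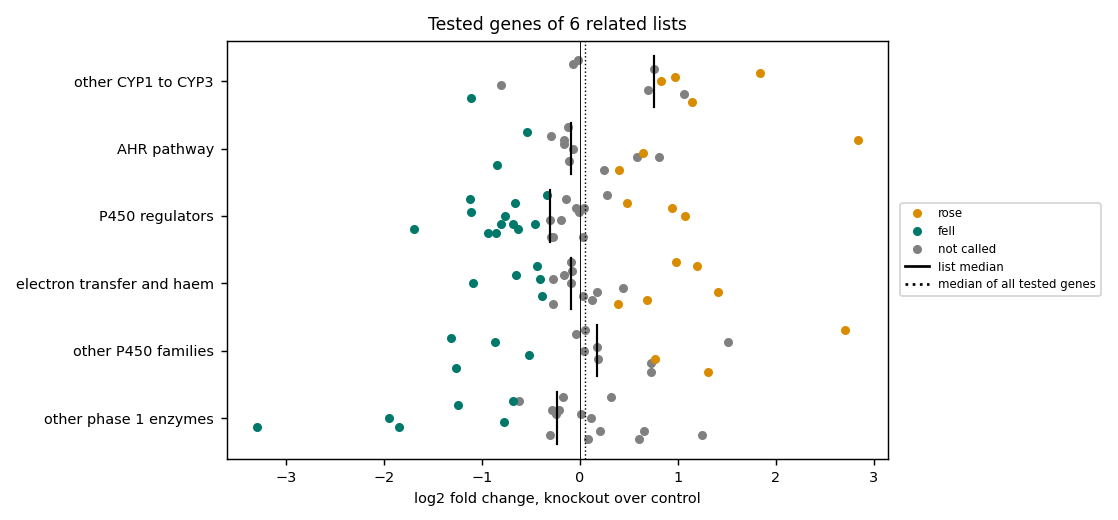
Log2 fold change, knockout over control (x axis), of the tested genes in 6 related lists, 1 point per gene, coloured by whether the gene rose, fell or was not called, with a bar at each list's median and a dotted line at the median of all tested genes. The medians run from −0.30 for the P450 regulators to 0.76 for the other CYP1 to CYP3 genes.

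The genes most like each of the 9 were those with the smallest root-mean-square difference in log2 CPM centred over the 6 libraries, a measure ruled by the difference between the groups. For CYP1A1 these were the amino acid transporters SLC7A10 and SLC6A6, at differences of 0.059 and 0.071. For CYP1B1 they were INHBE and IGFBP3 (both 0.116), and for CYP2B6 they were ALOX12 (0.091) and CD55 (0.114). CYP2J2 lay nearest to ETV5 (0.041) and ICAM3 (0.045), and CYP3A5 to NIPAL2 (0.067) and MYO9A (0.080). POR lay nearest to SMARCD2 (0.013) and B4GALT3 (0.023), AHR to KAT7 (0.027) and NDRG3 (0.033), and CYP2E1 to ST6GALNAC4 (0.099) and CASKIN1 (0.120). CYP2C8 was below the level of 1 CPM set for this description.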

How the data were processed

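The authors deposited raw read counts per gene for 6 Huh7 libraries, made from total RNA with a SMARTER mRNA kit, per the labels' protocols. The submitters' processing notes name build hg19. No source used here gives the aligner, counter, annotation or strand setting. Of 25202 rows, 19974 carry Ensembl IDs, 19883 of them with a symbol. Counts were tested with edgeR 4.0.16 in R 4.3.3 (filterByExpr, TMM, quasi-likelihood, group as the single term), which kept 16331 genes. CPM were computed here. Errors are SDs over 3 libraries, and SEs of log2 fold changes were derived from each gene's F statistic. Intervals are at 95%. Exon and transcript lengths and shared 50-base words came from GENCODE release 29 (GRCh38), whose build differs from hg19, and promoter windows and gene order from RefSeq. The members, gene lists and tests were chosen with earlier results of these data known, and the motifs after the values had been seen. All 9 members, and up to 3 called genes of each list in each direction with the smallest p, were named. A few genes that this rule or the lists would name are not reported here. Others named were direct partners or were chosen after their values were seen. Alternatives used DESeq2 1.42.0 and limma 3.58.1. The code was tested on simulated data. Libraries of a group differed beyond sampling noise (chi-square per degree of freedom at least 9.35), so all were counted.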

Additional observations from a re-analysis of the deposited data

How the results depend on the processing

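The 3 rises (CYP1B1, CYP2B6, CYP3A5) and 3 falls (CYP1A1, CYP2J2, POR) kept their direction and their call in all 96 combinations of gene and setting. CYP1B1 ranged from 2.43 to 2.69 on the log2 scale and CYP1A1 from −1.28 to −0.91. The falls among the 9 genes were 4 with DESeq2 and without control replicate 1, where AHR was called. Library size alone gave 4846 rises and 1878 falls over all genes, and upper-quartile scaling 4226 and 2338, against 3448 and 3100. These scalings moved the median over all genes to 0.24 and 0.16, and less that median CYP1A1 stood at −1.26 in each. At an adjusted p below 0.01, 3984 genes were called (2054 rose, 1930 fell), with 6 electron transfer and haem genes and 4 genes of other P450 families. Leaving out 1 library gave 2047 to 3439 falls over all genes, the lowest without knockout replicate 1, and 6 to 12 called electron transfer and haem genes. Cyclic loess gave 6 of these, and signs turned there for AHR (0.020), CYP2C8 (−0.023) and CYP2E1 (−0.44), which were not called. CYP2E1 ran from −0.15 to 0.26 with 1 library left out. The cause of these moves was not tested. Of the 30 list genes named by rule, 7 lost their call under at least 1 setting. Replicate numbers do not pair the libraries (correlations of same-numbered libraries 0.042, −0.071 and −0.073, with 1 of 3 knockout libraries closest to its own number). With a replicate block, 5739 genes were called in place of 6548 and CYP2E1 stood at −0.0018. Low counts limit CYP2C8, CYP2E1, CYP1A2 and CYP3A4.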
